A study of Mus musculus with 16 samples.

Results

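miR-9 is cut from a hairpin whose 5p and 3p strands are both used as microRNAs (miRNAs), and the rows mmu-miR-9-5p and mmu-miR-9-3p are described here by name, 2 of 18488 small non-coding RNA features and 2 of 1241 mature miRNA rows. The libraries were made from frozen prefrontal cortex of 16 adult mice of a single age, 1 library per mouse. The PS19 group held 8 mice labelled PS19+/-, which are heterozygous for a mutant human tau (MAPT) transgene driven by the mouse prion promoter and model tauopathy. The WT group held 8 littermates without the transgene. The line has a mixed C57BL/6 and C3H background. Males and females were equal in number in each group according to the methods. The transgene itself cannot be checked in a table of small RNAs. The question of the comparison was whether cortical small RNAs differ between PS19 and WT mice.

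A miRNA guides an Argonaute protein to messenger RNAs through its seed, the bases near its 5′ end, and lowers their translation and stability. miR-9 is one of the most abundant miRNAs of the brain, is expressed in neural progenitors and in neurons, and is known for its part in neurogenesis. Its 5p strand targets the transcriptional repressor REST as well as Hes1 and Tlx (Nr2e1), factors that keep progenitors dividing, whereas its 3p strand, long written miR-9*, targets the REST cofactor CoREST.

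The mature sequences from RefSeq (GRCm38.p6) are shown because both arms come from 1 stem yet carry different seeds, set in capitals as bases 2 to 8. miR-9b, of similar sequence, is printed so that it can be told apart from them. Its arms are the reverse complement of stretches of the miR-9 hairpins, that is, they are read from the opposite strand.
mmu-miR-9-5p: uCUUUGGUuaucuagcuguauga
mmu-miR-9-3p: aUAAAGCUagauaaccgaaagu
mmu-miR-9b-5p: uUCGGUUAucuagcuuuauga
mmu-miR-9b-3p: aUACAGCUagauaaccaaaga
miR-9-5p is 23 bases long and miR-9-3p is 22 bases long, and both miR-9b arms are 21 bases long. Each of the 4 seeds was carried by 1 of 1679 mature miRNA names in the RefSeq table, so no other named mouse miRNA shared a seed with either miR-9 arm. The data held 0 rows for miR-9b.

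The mouse genome holds 3 miR-9 hairpins, printed with both arms in capitals because the arms are the same bases in each and only the lower-case flanks and loops tell the loci apart.
Mir9-1: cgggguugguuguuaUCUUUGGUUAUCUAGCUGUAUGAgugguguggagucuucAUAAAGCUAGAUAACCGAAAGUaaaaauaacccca
Mir9-2: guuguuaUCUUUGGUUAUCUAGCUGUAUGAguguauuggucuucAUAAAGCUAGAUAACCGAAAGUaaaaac
Mir9-3: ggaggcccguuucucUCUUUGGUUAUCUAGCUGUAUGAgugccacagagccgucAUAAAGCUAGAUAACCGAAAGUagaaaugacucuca
The loop between the arms is 16 bases in Mir9-1, 14 bases in Mir9-2 and 16 bases in Mir9-3. Mir9-1 lies on the plus strand at chr3:88215598-88215686 (GRCm38), inside an intron of the long non-coding RNA gene Gm3764, and the miRNA gene Gm25641 covers it on the opposite strand. Mir9-2 lies on the plus strand at chr13:83738814-83738885, within an exon of the long non-coding RNA gene C130071C03Rik. Mir9-3 lies on the plus strand at chr7:79505264-79505353, inside an intron of the long non-coding RNA gene Mir9-3hg. A read of either mature arm can therefore not be assigned to a locus.

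The values are read counts divided by a size factor for each library, called normalized read counts here, and the 16 libraries held between 13187096 and 23058568 annotated reads. Mature miRNAs other than the miR-9 arms held between 14.3% and 31.0% of that signal. The first letter of the library code differed between groups: all 8 PS19 libraries and 2 WT libraries had the letter G, 4 WT libraries had F and 2 WT libraries had A, and what the letter marks is not given in the sources used here. Outside the letter G, the letter and the genotype cannot be told apart. The neuron marker miRNAs miR-124-3p, miR-128-3p and miR-138-5p were above 0 in every library, whose labelled tissue is brain.

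miR-9-5p was among the most abundant miRNAs of the cortex in both genotypes, and miR-9-3p was a minor strand. In the PS19 libraries 1 to 8, the miR-9-5p level was 213563, 140288, 242086, 188726, 134569, 107667, 98915 and 63713 normalized read counts. In the WT libraries 1 to 8, it was 196756, 133084, 227679, 223889, 171801, 75428, 66988 and 224940. The groups overlapped over nearly their whole ranges: PS19 replicate 8 was the lowest library and PS19 replicate 3 the highest of all 16. miR-9-3p, the strand that targets CoREST, had 3273, 3187, 4327, 3580, 2807, 2126, 2008 and 1487 normalized read counts in the PS19 libraries. In the WT libraries the miR-9-3p level was 3361, 2335, 4114, 4599, 4679, 1597, 1562 and 5382. Its groups overlapped as well, with PS19 replicate 8 the lowest and WT replicate 8 the highest.

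**Figure D1:**
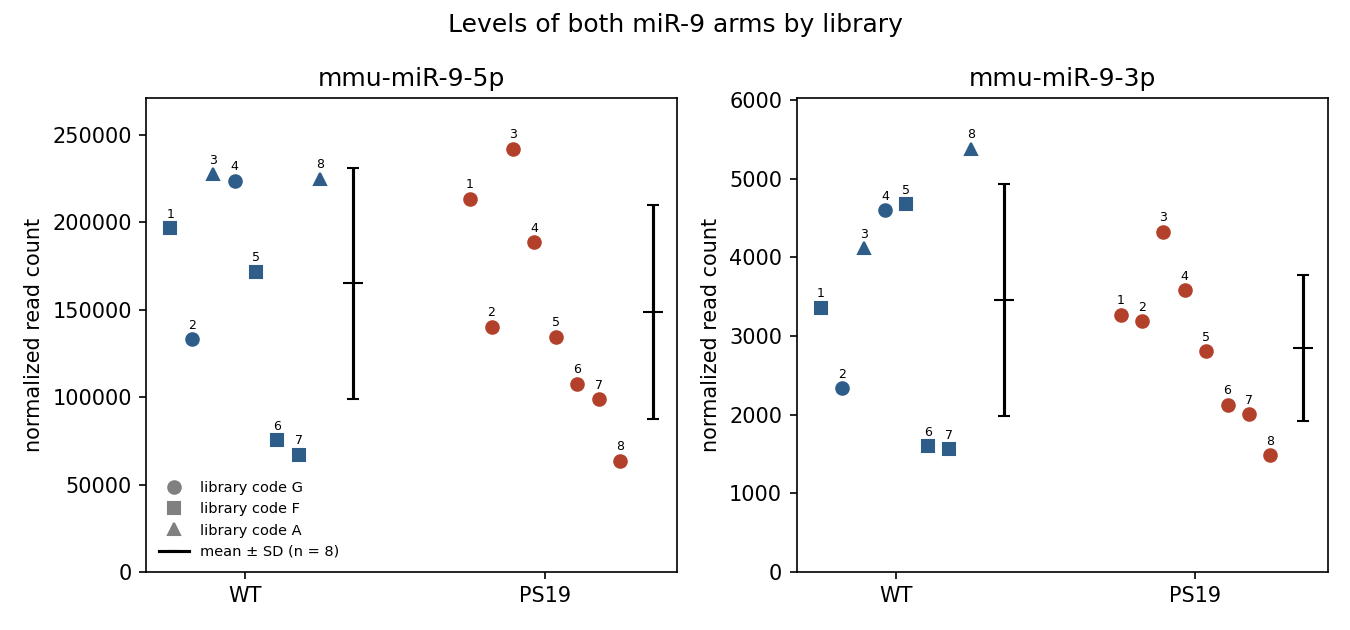
Normalized read counts of mmu-miR-9-5p and mmu-miR-9-3p on linear axes that start at 0, 1 point per library with its replicate number, point shape for the first letter of the library code, and bars for the mean ± SD (n = 8). The WT points of miR-9-5p span 66988 to 227679 and the PS19 points 63713 to 242086, and both arms are low in WT replicates 6 and 7 and in PS19 replicate 8.

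No difference between PS19 and WT mice was detected for either arm. The mean miR-9-5p level was 148690 ± 61160 in PS19 (SD, n = 8) and 165070 ± 66220 in WT (SD, n = 8), and the medians were 137430 and 184280. On the log2(value + 1) scale, the PS19 minus WT difference of miR-9-5p was -0.13 (SE 0.30, 95% interval -0.76 to 0.49; limma over 6024 features, two-sided, Benjamini-Hochberg adjusted p = 0.9998). This interval runs from 0.592-fold to 1.40-fold in PS19 compared to WT. The mean miR-9-3p level was 2849 ± 934 in PS19 and 3454 ± 1476 in WT (SD, n = 8 each), with medians of 2997 and 3738. Its log2 difference was -0.21 (SE 0.29, 95% interval -0.81 to 0.38, that is 0.571-fold to 1.30-fold; limma, adjusted p = 0.9998). The two-sided exact permutation test over the 12870 assignments of libraries gave p = 0.696 for miR-9-5p and p = 0.497 for miR-9-3p.

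Neither arm was among the called features, and the background is small. At an adjusted p under 0.05, limma called 0 of 6024 features (0.00%), edgeR on recovered reads 0 and DESeq2 on recovered reads 15. At an unadjusted p under 0.05, limma called 241 of 6024 features (4.0%) and 15 of the 521 mature miRNAs tested (2.88%). Within the 10 libraries of code letter G the log2 difference was -0.33 for miR-9-5p (95% interval -1.23 to 0.56) and -0.28 for miR-9-3p (95% interval -1.14 to 0.59), from 8 PS19 and 2 WT libraries. Without PS19 replicate 8 the difference of miR-9-5p was 0.03, and this was the only one of 16 libraries whose omission turned its sign. Without WT replicate 7 it was -0.30. In bulk tissue, fewer cells of a type and less RNA per cell cannot be told apart.

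The spread between libraries of 1 group, each from 1 mouse, was large, at 3.80-fold from the lowest to the highest miR-9-5p level in PS19 and 3.40-fold in WT. Some same-numbered libraries of the 2 groups were alike: replicate 3 was high in both (242086 in PS19, 227679 in WT) and replicate 7 low in both (98915 and 66988). Replicate 8 was not (63713 and 224940). Whether same-numbered libraries share a handling step is not given in the sources used here and was not tested. miR-9-5p had 75388 to 266166 recovered reads per library and miR-9-3p 1596 to 5768, for which counting error alone is 0.364% and 2.5% at the lowest read number; amplified reads are not independent molecules, so this is a lower bound on the technical error. The libraries with the lowest miR-9-5p level also had the least signal in all other mature miRNAs. That share of all annotated signal was 24.2% ± 5.11 in PS19 (from 17.4% in replicate 8 to 31.0% in replicate 1) and 24.8% ± 5.75 in WT (from 14.3% in replicate 7 to 30.8% in replicate 3; SD, n = 8 each). The difference of -0.635 percentage points was within that spread (two-sided exact permutation p = 0.815).

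Over the 16 libraries, log2 miR-9-5p rose with the share of the other mature miRNAs (Pearson r = 0.952, permutation p = 1e-05; Spearman rho = 0.885, permutation p = 2e-05). The r was 0.945 within PS19, 0.962 within WT, 0.952 within the 10 libraries of letter G, and 0.940 without PS19 replicate 8 and WT replicate 7, the libraries farthest from the median. For miR-9-3p the same relation had r = 0.865 (permutation p = 1e-05) and rho = 0.794 (permutation p = 0.00043), with 0.865 within PS19, 0.880 within WT, 0.881 within letter G and 0.804 without those libraries. Both values of a point come from 1 library. The miR-9 level carries the size factor of that library, and the share does not. Mature miRNAs often moved together on this scale: the median r of those tested with miR-9-5p was 0.691, and 0.0733 after scaling to the miRNA total. The relation to the share was not computed for other miRNAs, so it is not shown to be particular to miR-9. Of 6 relations computed, adjusted permutation p-values were 2e-05 for r of both arms, and 4e-05 (miR-9-5p) and 0.000516 (miR-9-3p) for rho; 1e-05 is the smallest p the 100000 permutations can give.

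**Figure D2:**
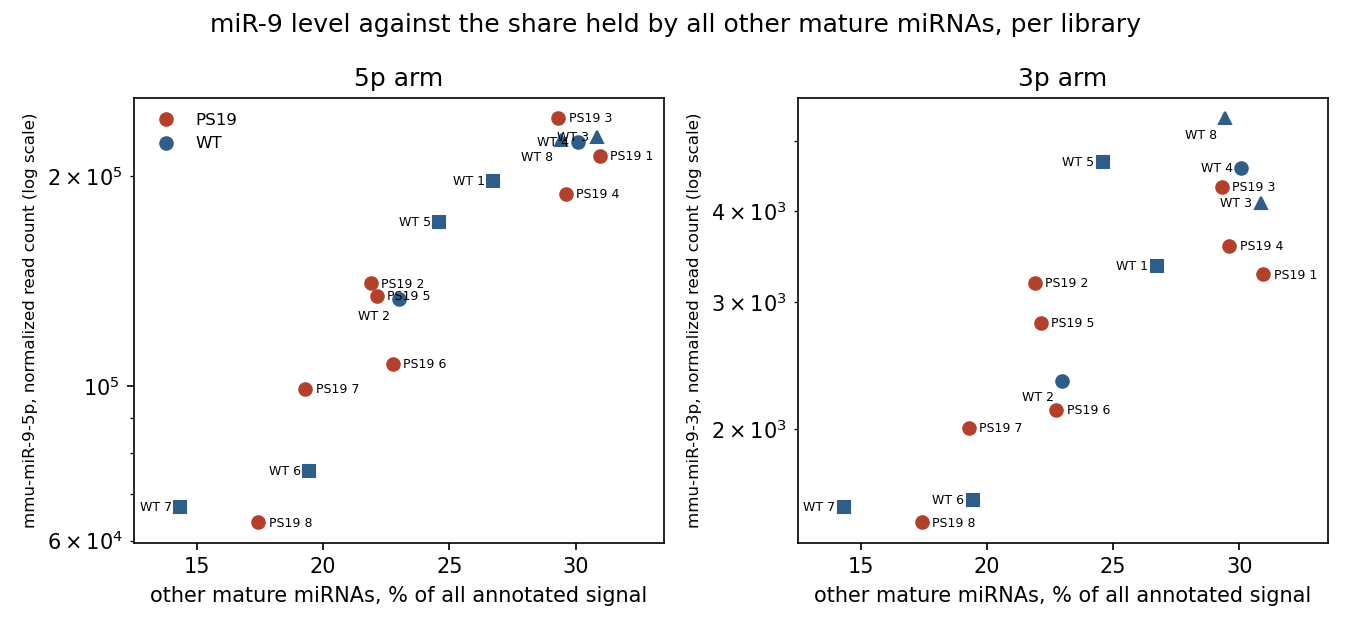
Normalized read count of each miR-9 arm (log axis) against the percent of all annotated signal held by the other mature miRNAs, 1 point per library, with circles, squares and triangles for library code letters G, F and A. The points rise together in both genotypes (r = 0.952 for the 5p arm and 0.865 for the 3p arm), from WT replicate 7 and PS19 replicate 8 at the lower left to the libraries near 30.8% at the upper right.

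Measured as a share of the mature miRNA signal of its own library, miR-9-5p was steadier between mice. It held 3.37% ± 0.445 in PS19 and 3.61% ± 0.848 in WT (SD, n = 8 each). The PS19 shares ran from 2.71% in replicate 8 (Wilson 95% interval 2.69% to 2.72%) to 3.99% in replicate 5, and the WT shares from 2.86% in replicate 6 to 5.0% in replicate 8 (4.98% to 5.02%); these intervals cover counting error only, since no molecular identifiers were counted. WT replicates 4, 5 and 8 lay above every PS19 library, and the other WT libraries fell within the PS19 range. The difference of -0.244 percentage points was within the spread between mice (exact permutation test, two-sided, p = 0.484; the adjusted p, over 5 measures taken within a library, was 0.605). miR-9-3p held 0.0668% ± 0.0108 in PS19 and 0.0775% ± 0.0270 in WT (SD, n = 8 each; exact permutation p = 0.316, adjusted p = 0.605). WT replicate 8 was the highest library for both arms' shares, and without it the difference was -0.0455 percentage points for miR-9-5p and -0.0047 for miR-9-3p.

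The shares of the arms moved together over libraries (r = 0.844, permutation p = 3e-05, adjusted p = 3.6e-05; rho = 0.789, permutation p = 0.00039, adjusted p = 0.000516). The r was 0.628 within PS19, 0.905 within WT, 0.806 within letter G and 0.727 without WT replicates 8 and 4. On the scale of the miRNA total, the within-group SD of log2 miR-9-5p was 0.266, against a median of 0.485 over the 521 mature miRNAs tested, and 6.72% of them had a smaller SD. For miR-9-3p it was 0.387, and 30.7% had a smaller SD. The 521 rows go down to a mean of 5, where low counts widen the SD, and miR-9-5p is itself part of the total. Rows of like abundance were not compared. On the normalized scale the SD was 0.679 for miR-9-5p and 0.618 for miR-9-3p, against a median of 0.706, so the narrow spread of miR-9-5p appeared only once the libraries were scaled to their miRNA total.

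By mean level, miR-9-5p was the 7th of 1241 mature miRNA rows, between the 6th and the 9th in single libraries, and the rows at the top were let-7c-5p (628202), let-7f-5p (550494) and miR-128-3p (486403). let-7i-5p, the row next above, was higher than miR-9-5p in all 16 libraries, by 0.73 ± 0.28 on the log2 scale (SD), and miR-127-3p was higher in all but 1 of 16 libraries. Next below, let-7g-5p was lower than miR-9-5p in 15 of 16 libraries, with a log2 difference of 0.55 ± 0.29 (SD), and miR-7a-5p was lower in 13 of 16. miR-9-3p stood at rank 81, and between 63 and 94 in single libraries. It did not stand apart from its neighbours in rank, miR-92b-3p, miR-23a-3p, miR-1843b-3p and miR-381-3p: it was higher in 6, 7, 7 and 10 of 16 libraries respectively. Ligation and amplification differ between miRNA sequences, so the order of rows is that of reads, not of molecules.

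The 5p arm outnumbered the 3p arm in every library, and miR-9-5p made up 98.0% of the reads of both arms. The ratio of 5p to 3p was 51.1 ± 7.15 in PS19, from 42.8 in replicate 8 to 65.2 in replicate 1. In WT it was 48.5 ± 7.90, from 36.7 in replicate 5 to 58.5 in replicate 1 (SD, n = 8 each). The groups overlapped, and the log2 ratio was 5.66 ± 0.19 in PS19 and 5.58 ± 0.24 in WT. The difference in log2 ratio was 0.08 (95% interval -0.24 to 0.39 from limma over 121 miRNAs with both arms tested, p = 0.604, adjusted p = 0.860; two-sided exact permutation p = 0.475, adjusted p = 0.605), which is also the test of whether the arms differed in their genotype difference. Within the libraries of letter G the difference in log2 ratio was -0.06. Of the 121 arm ratios, 6 had an unadjusted p under 0.05 (4.96%) and 1 an adjusted p under 0.05, and that of miR-9 was not among them.

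**Figure D3:**
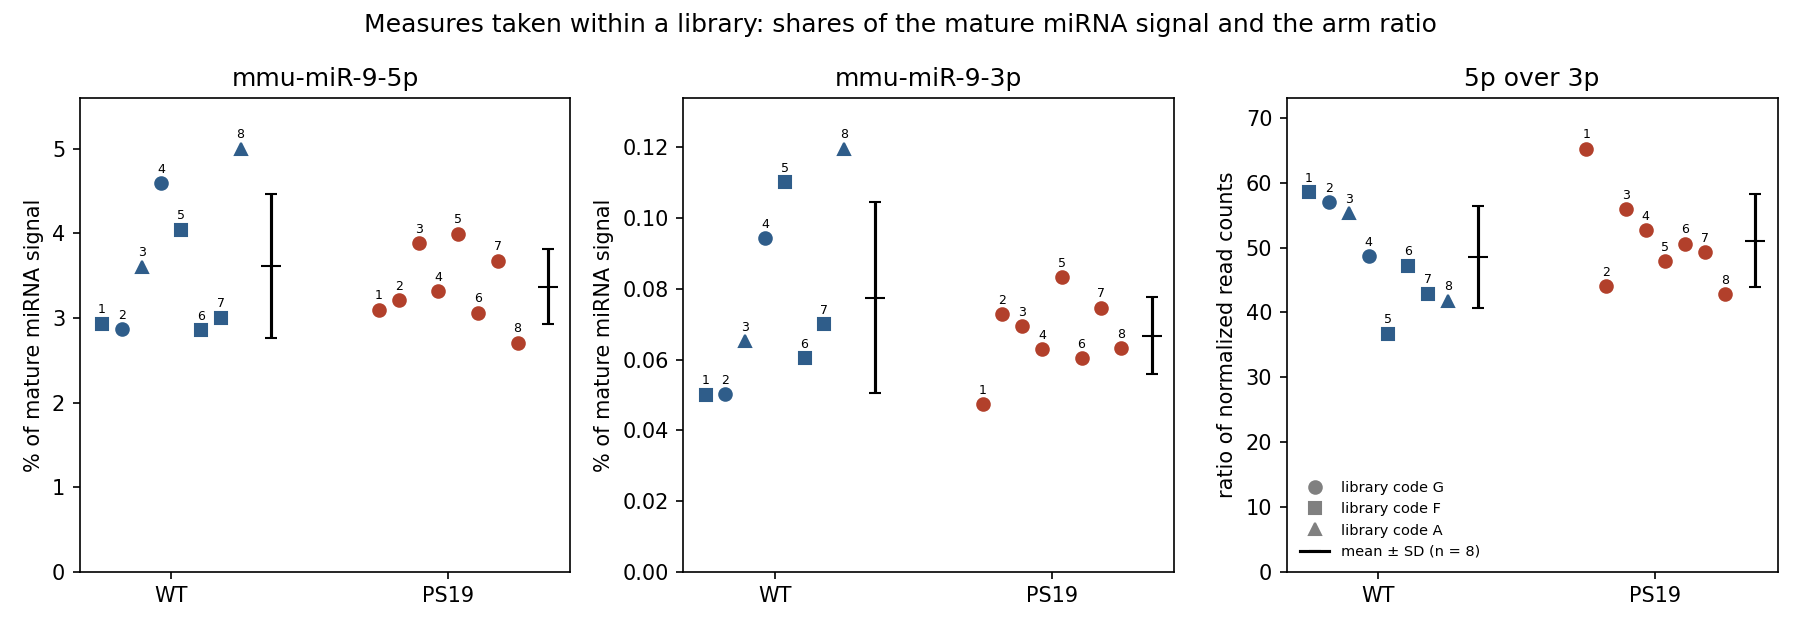
Percent of the mature miRNA signal held by each miR-9 arm and the ratio of 5p to 3p, 1 point per library with its replicate number, point shape for the first letter of the library code, and bars for the mean ± SD (n = 8), on linear axes from 0. The groups overlap in every panel, WT replicate 8 has the highest shares (5.0% for the 5p arm) and PS19 replicate 1 the highest ratio (65.2).

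Among the 121 miRNAs with both arms tested, miR-9 had the 14th highest 5p excess, between miR-1839 (mean log2 ratio 6.54) and miR-493 (5.46). The 5p arm was the higher one in 60 of the 121. Of the other neural miRNAs with both arms tested, let-7b had a log2 ratio of 12.90 and miR-134 of 9.0, above that of miR-9. The ratio was 3.69 for miR-212, which is induced by neuronal activity, and 1.47 for miR-137. In miR-153 (-0.70), miR-132 (-1.23) and the neuronal miR-124 (-7.55), the 3p arm was the higher one. The spread of the ratio between mice was low for miR-9, with a within-group SD of 0.218 against a median of 0.510 over the 121. It was at the low end of a continuous range: miR-99b had 0.238, miR-380 0.243, miR-30e 0.247 and miR-124 0.268, so miR-9 did not stand apart from them. Low counts widen a ratio, so the ratios were also compared among the 11 miRNAs whose lower arm had a mean of at least 500, a limit chosen after the values were seen. Their median SD was 0.384. As 0 of the 121 had a smaller SD than miR-9, its place as the lowest of the 11 was fixed in advance and adds nothing.

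**Figure D4:**
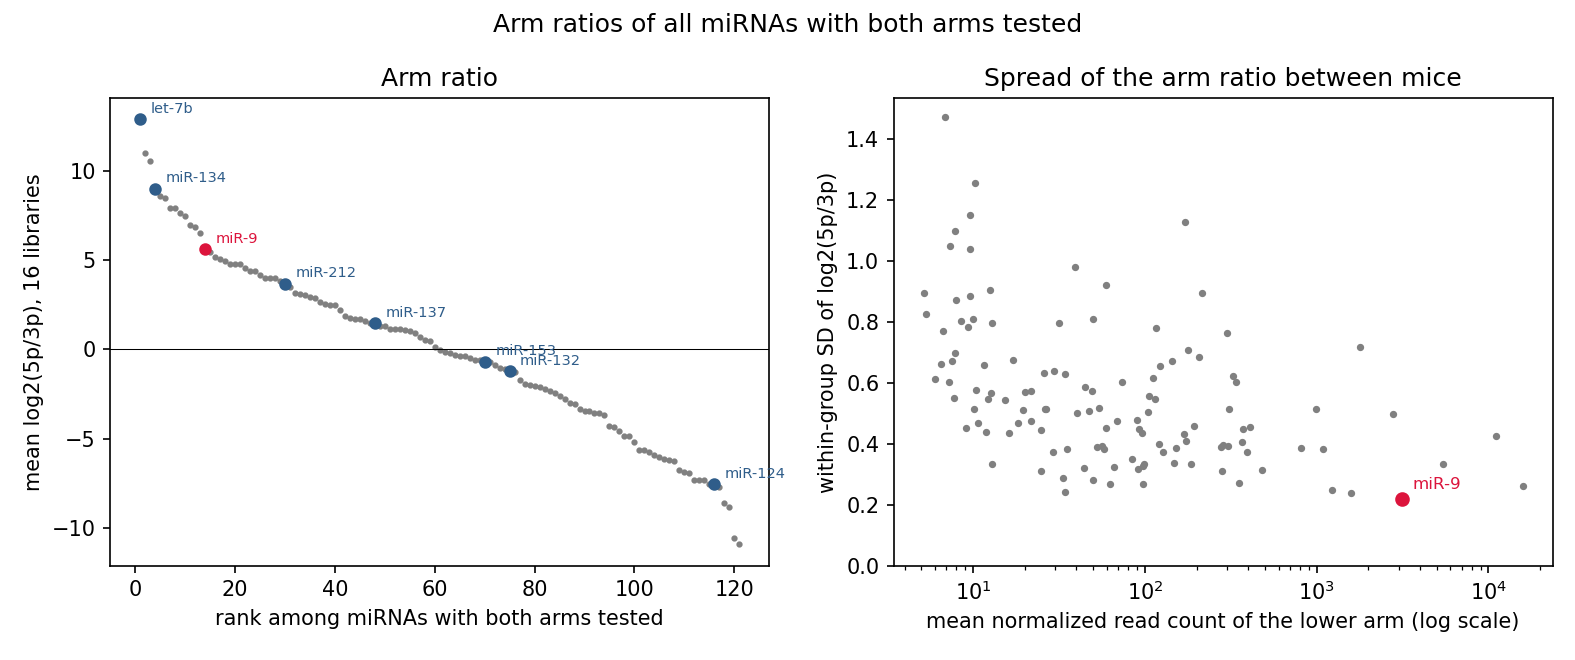
Left, the mean log2 ratio of 5p to 3p over 16 libraries for the 121 miRNAs with both arms tested, in rank order, with miR-9 in red and other neural miRNAs in blue. Right, the within-group SD of that ratio against the mean normalized read count of the lower arm (log axis), where miR-9 is the lowest point at 0.218.

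The level of one arm followed that of the other over the 16 libraries (r = 0.946, permutation p = 1e-05, adjusted p = 2e-05; rho = 0.897, permutation p = 1e-05, adjusted p = 3e-05). The r was 0.968 within PS19, 0.944 within WT, 0.961 within letter G and 0.916 without PS19 replicate 8 and WT replicate 7. The arm ratio, which holds the miR-9-5p level as 1 of its terms, had a relation to that level that did not pass the test over all libraries and varied between subsets (r = 0.397, permutation p = 0.127; rho = 0.376, permutation p = 0.152; r of 0.758 within PS19, 0.187 within WT, 0.610 within letter G and 0.218 without the same libraries).

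The table also held 1 row for each of the precursors mmu-mir-9-1, mmu-mir-9-2 and mmu-mir-9-3, the hairpins printed above. Their levels in PS19 were 972 ± 377, 961 ± 371 and 974 ± 383 normalized read counts, and in WT 1124 ± 450, 1112 ± 448 and 1125 ± 454 (SD, n = 8 each). Within a library, the highest of the 3 rows exceeded the lowest by 1.04-fold at most. The squared differences between rows averaged 0.102 of what separate reads would give by counting error alone, so the rows largely counted the same reads and are not 3 measurements. The printed hairpins share little beyond the arms, so reads common to all 3 would lie mostly in the arms. The rows are therefore not a measure of the hairpins apart from the arms. Their log2 differences between genotypes were -0.17, -0.17 and -0.18 (limma, adjusted p = 0.9998 for each).

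The mean of the precursor rows was 0.663% ± 0.0772 of the miR-9-5p level in PS19, from 0.553% in replicate 1 to 0.823% in replicate 7, and 0.679% ± 0.0335 in WT, from 0.649% to 0.730% (SD, n = 8 each; two-sided exact permutation p = 0.606, adjusted p = 0.606). PS19 replicate 7 lay above the WT range, PS19 replicates 1, 2, 5 and 6 lay below it, and the other 3 PS19 libraries fell within it. Over the 150 other precursor rows matched to their mature arms, the median was 6.97% of the arms' level, and 29 were below the mean of 0.653% of the miR-9 rows. Some of these rows are copies of 1 miRNA with nearly the same share, such as the mir-467a rows at 13.5% each, and were counted separately. The mean of the precursor rows followed miR-9-5p over libraries (r = 0.983, permutation p = 1e-05, adjusted p = 2e-05, and rho = 0.968, permutation p = 1e-05, adjusted p = 3e-05). The r was 0.968 within PS19, 0.995 within WT, 0.972 within letter G and 0.968 without PS19 replicate 8 and WT replicate 7. As reads of these rows would lie mostly in the arms, this relation does not show that hairpin levels followed miR-9-5p.

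Among all 6024 features tested, the rows whose log2 levels over the 16 libraries were most like miR-9-5p were its 3 precursor rows (Pearson r of 0.982 to 0.984), miR-29a-3p (0.982) and miR-30e-3p (0.981). With the group means removed, the mature miRNAs most like it were miR-29a-3p (0.982), miR-30e-3p (0.982), miR-340-5p (0.979), miR-146b-5p (0.974) and miR-30e-5p (0.970). The median r over the tested mature miRNAs was 0.691, so high values are common on this scale, which the libraries share. For miR-9-3p, the precursor rows (0.954 to 0.958) were followed by miR-126a-5p and miR-340-3p (0.953 each), and with the group means removed miR-9-5p had 0.948, next before miR-126a-3p (0.942) and miR-369-5p (0.941). After scaling to the miRNA total of each library, the median r fell to 0.0733 for miR-9-5p and 0.0856 for miR-9-3p. On that scale miR-29a-3p (0.884), miR-30e-5p (0.866), miR-1839-3p (0.848), miR-9-3p (0.843) and miR-30e-3p (0.835) were most like miR-9-5p. miR-1839-3p (0.902), miR-30e-3p (0.882), miR-126a-5p (0.881) and miR-30b-5p (0.849) were most like miR-9-3p, and miR-9-5p came next. The arms were thus among each other's 5 most similar mature miRNAs on this scale.

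No difference between genotypes was detected in other miRNAs of neural cells either. Of 13 listed neural miRNAs, 13 were tested and 0 had an unadjusted p under 0.05, against 2.88% of all mature miRNAs tested. Their log2 differences were positive in 6 and negative in 7, with a median of -0.04, against -0.13 over the 521 mature miRNAs and -0.02 over all 6024 features. miR-9-5p at -0.13 thus lay at the median of the mature miRNAs. miR-124-3p, the main neuronal miRNA, had 11600 ± 5500 normalized read counts in PS19 and 11820 ± 3973 in WT (log2 difference -0.09). miR-128-3p had 506400 and 466400 (0.00), and miR-132-3p, which is induced by neuronal activity, had 11840 and 11960 (0.01). The smallest p of the list was 0.315 for miR-153-3p (limma, log2 difference -0.36). miR-7a-5p had the widest interval, with 81420 ± 86580 in PS19 and 122300 ± 117400 in WT (log2 difference -0.43). The r of these miRNAs with miR-9-5p over libraries was between 0.592 for miR-7a-5p and 0.967 for miR-218-5p.

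**Figure D5:**
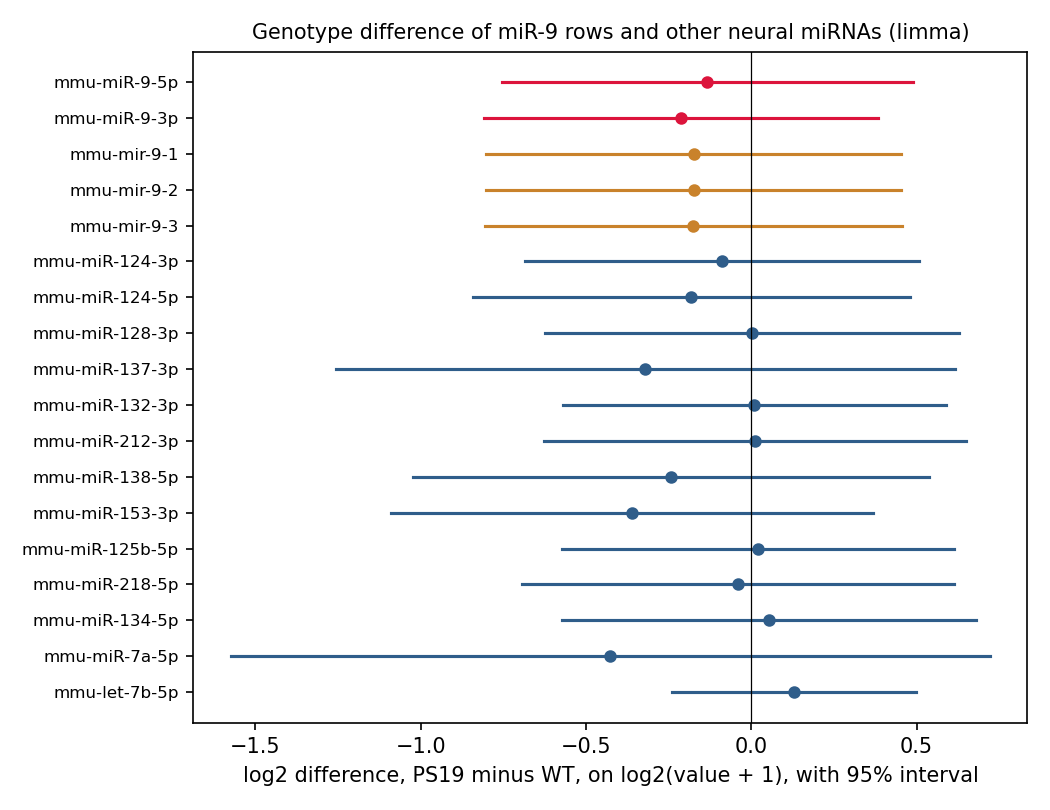
Log2 difference, PS19 minus WT, on log2(value + 1) with its 95% interval from limma, for both miR-9 arms (red), the 3 precursor rows (orange) and 13 neural miRNAs (blue). Every interval crosses 0, and those of the miR-9 arms are centred at -0.13 and -0.21.

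Marker miRNAs of other cell types were summed per library as normalized read counts, and 0 of the listed rows were at 0 in all 16 libraries. The neuron list (3 of 3 rows tested) spanned 195800 to 784000 in PS19 and 274500 to 756300 in WT (two-sided exact permutation p = 0.995). The oligodendrocyte list (2 of 3 tested) spanned 18520 to 52340 and 13370 to 46510 (exact permutation p = 0.191), and the vessel list (4 of 4 tested) 15250 to 61730 and 17890 to 60760 (exact permutation p = 0.362). The microglia and leukocyte list (2 of 5 tested) spanned 571 to 3013 and 433 to 1539 (exact permutation p = 0.313), and 1 of its rows, miR-155-5p, had an unadjusted p under 0.05, with means of 82.5 in PS19 and 44.3 in WT, against 2.88% of all mature miRNAs under that threshold; its adjusted p was not under 0.05. The adjusted p was at least 0.858 for each of 8 such lists. Over the 8 lists, the Pearson r of the summed level with miR-9-5p over the 16 libraries ran from 0.009 for the red blood cell list to 0.938 for the vessel list, and it was 0.754 for the neuron list, whose sum is mostly miR-128-3p (r = 0.745), and 0.902 for miR-124-3p alone. These values share the scaling of their library, and their part in the miR-9 levels was not tested. The red blood cell list (2 of 3 tested) spanned 731 to 1518 and 652 to 1411, and the choroid plexus list (2 of 2 tested) 776 to 6598 and 545 to 4152. Markers of tissue outside the dissected cortex were present in every library: the olfactory list (3 of 3 tested) summed to 32.5 to 565 in the PS19 libraries and 53.0 to 3175 in the WT libraries, and the liver and muscle list (3 of 3 tested) to 240 to 2617 and 255 to 1739.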

How the data were processed

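Small RNA was sequenced from prefrontal cortex of 8 PS19 and 8 WT mice, 1 library each, with a ligation-based kit. According to the submitters' processing notes, STAR 2.5.3a, mm10 (GRCm38) and DESeq2 1.42.1 were used; per the methods, COMPSRA annotated the reads. The deposited signal values are normalized read counts, that is counts the authors divided by size factors, with a mean and comparison columns (log2 fold change, its error, Wald statistic, p and adjusted p) that were not used. Whole reads were recovered from the steps between values (tolerance 0.01). All 16 sample columns were used and 0 were left out.

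log2(value + 1) of features with a mean of at least 5 was fitted with limma 3.58.1 (trend) in R 4.3.3, adjusting p over 6024 features; edgeR 4.0.16 and DESeq2 1.42.0 on recovered reads were alternatives. Exact permutation tests, intervals and correlations used scipy 1.17.1 and numpy 2.4.6. All tests were two-sided, and the fit was checked on simulated data. Named rows were both arms, the precursors, 13 neural miRNAs, for each arm the 5 rows of highest r, its neighbours in level and in arm ratio, and cell type markers. The members and lists were chosen with earlier results of these data known. No libraries were duplicates: over 56 pairs within groups, chi-square per degree of freedom was at least 43.5. p-values measure the spread between mice.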

Additional observations from a re-analysis of the deposited data

How the results depend on the processing

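Neither arm passed the threshold under any alternative: the smallest unadjusted p was 0.302 for miR-9-5p and 0.212 for miR-9-3p, and the smallest adjusted p was 0.914 and 0.887. Leaving out 1 library at a time gave log2 differences of -0.30 (without WT replicate 7) to 0.0254 (without PS19 replicate 8, the reversal) for miR-9-5p, and of -0.36 to -0.09 for miR-9-3p, again without WT replicate 7 and PS19 replicate 8. The 13 other alternatives (tests, scalings, filters, pseudocounts, weights, library code letter) gave -0.33 to -0.08 and -0.31 to -0.16. Without 1 library, the precursor differences lay between -0.35 and -0.02, the log2 arm ratio difference between 0.02 (without WT replicate 5) and 0.12 (without WT replicate 1), the miR-9-5p share difference between -0.351 (without WT replicate 6) and -0.0455 (without WT replicate 8), and the miR-9-3p share difference between -0.0146 and -0.0047 percentage points. The arm ratio difference reversed to -0.0562 in libraries of letter G (p = 0.733 by exact permutation). The miR-9-5p share difference was -0.160 percentage points with let-7c-5p left out of the denominator. It was -0.114 as a share of all features and -0.360 in libraries of letter G.

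Features with an adjusted p under 0.05 numbered 15 with DESeq2 and 0 otherwise, and from 0 to 0 without 1 library. The count at an unadjusted p under 0.05 was 241; it was 680 without the filter and 136 with a mean of at least 20 (other numbers of features tested), 418 with array weights, 419 with the replicate block, 124 with the letter as a term and 121 in letter G alone (fewer libraries), and 171 (without WT replicate 8) to 321 (without PS19 replicate 1) when 1 library was left out. The cause of the other shifts was not tested.

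No label says that same-numbered mice are related, and they were not treated as pairs in the main fit. Of 8 correlations of same-numbered deviations, 5 were over 0.1. All 8 were positive (0.045 to 0.456), and 4 of 16 libraries correlated best with their own number, so some shared deviation between same-numbered libraries was not excluded. With the replicate block the differences were -0.13 (adjusted p = 0.938) for miR-9-5p and -0.21 (adjusted p = 0.921) for miR-9-3p by limma. The block narrowed the SE from 0.30 to 0.21 for miR-9-5p and from 0.29 to 0.23 for miR-9-3p, and it changed no call of a member.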
